A study of Glycine max with 20 samples.

Results

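The FAD3 and stearoyl-ACP desaturase genes of soybean (Glycine max) were followed in leaf RNA before and after infestation with aphids. They are 6 of the 66210 gene models in the count table and were chosen by their identifiers: FAD3A (Glyma14g37350.1, chromosome 14), FAD3B (Glyma02g39230.1, chromosome 2), FAD3C (Glyma18g06950.1, chromosome 18), SACPD-A (Glyma07g32850.1, chromosome 7), SACPD-B (Glyma02g15600.1, chromosome 2) and SACPD-C (Glyma14g27990.1, chromosome 14). The table names no gene, and none of its identifiers matched the RefSeq gene table (Glycine_max_v4.0). That table lists genes called FAD3A, FAD3B, FAD3C and SACPD-C on the same chromosomes, has SACPD-B as a synonym of ACPD on chromosome 2, and has SACPD as a synonym of SAD2 on chromosome 7. It also lists FAD3-2b on chromosome 11 and a further SACPD gene on chromosome 13, which are not among the 6.

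Stearoyl-ACP desaturases are soluble enzymes of the plastid that put the first double bond into stearic acid while it is bound to acyl carrier protein, which gives oleic acid. FAD2 enzymes of the endoplasmic reticulum turn oleate into linoleate, and FAD3 enzymes of the same membrane turn linoleate into linolenate. Linolenic acid is abundant in leaf membranes and is the precursor of the wound hormone jasmonate. In soybean, FAD3A, FAD3B and FAD3C are best known from seeds, where mutant copies lower the linolenic acid of the oil, and SACPD-C is best known from seeds and root nodules, where its mutants raise stearic acid.

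The study sequenced 20 leaf libraries from 2 near-isogenic lines, which share most of their genome, at 5 times with 2 biological replicates each. The labels give the lines as Rag2 (resistant to aphids) and rag2 (susceptible), and the samples as leaves 4, 8, 24 and 48 h after aphids were placed and as leaves without aphids (0 h). The table calls the lines BC and W, and nothing in the sources used here pairs those names with Rag2 and rag2, so differences between lines are BC minus W and carry no direction relative to resistance. Leaves without aphids were sampled at 0 h only, so time of day and plant age cannot be told apart from infestation.

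The libraries held 7558768 to 38227436 reads assigned to gene models. Levels are CPM (read counts scaled by library size), with the sizes set by TMM, a method that sets the bulk of genes level between libraries. All 6 genes passed the low-count filter, which left 38918 models for testing. FAD3A had 109 to 859 reads per library, FAD3B, FAD3C, SACPD-A and SACPD-B had at least 429, and SACPD-C had 4 to 49, which makes its values the least precise. Replicate 2 of BC at 0 h stood apart. Its mean correlation with the other libraries was the lowest (0.893, next 0.906), and 7.46% of its reads overlapped no gene model (next highest 4.87%). Next on both measures was replicate 2 of BC at 8 h, which also had the largest TMM factor (1.27). The comparison of 8 h with 0 h in BC thus holds both of these libraries. Fold changes that rest on BC at 0 h are also given without replicate 2 of BC at 0 h. No gene lengths were at hand, so levels are compared between samples and not between genes. Statements on which libraries overlap refer to TMM-scaled CPM. For the 6 genes, each kind of separation between lines or from 0 h was seen in 15% to 26.3% of tested models, as given below.

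**Figure D1:**
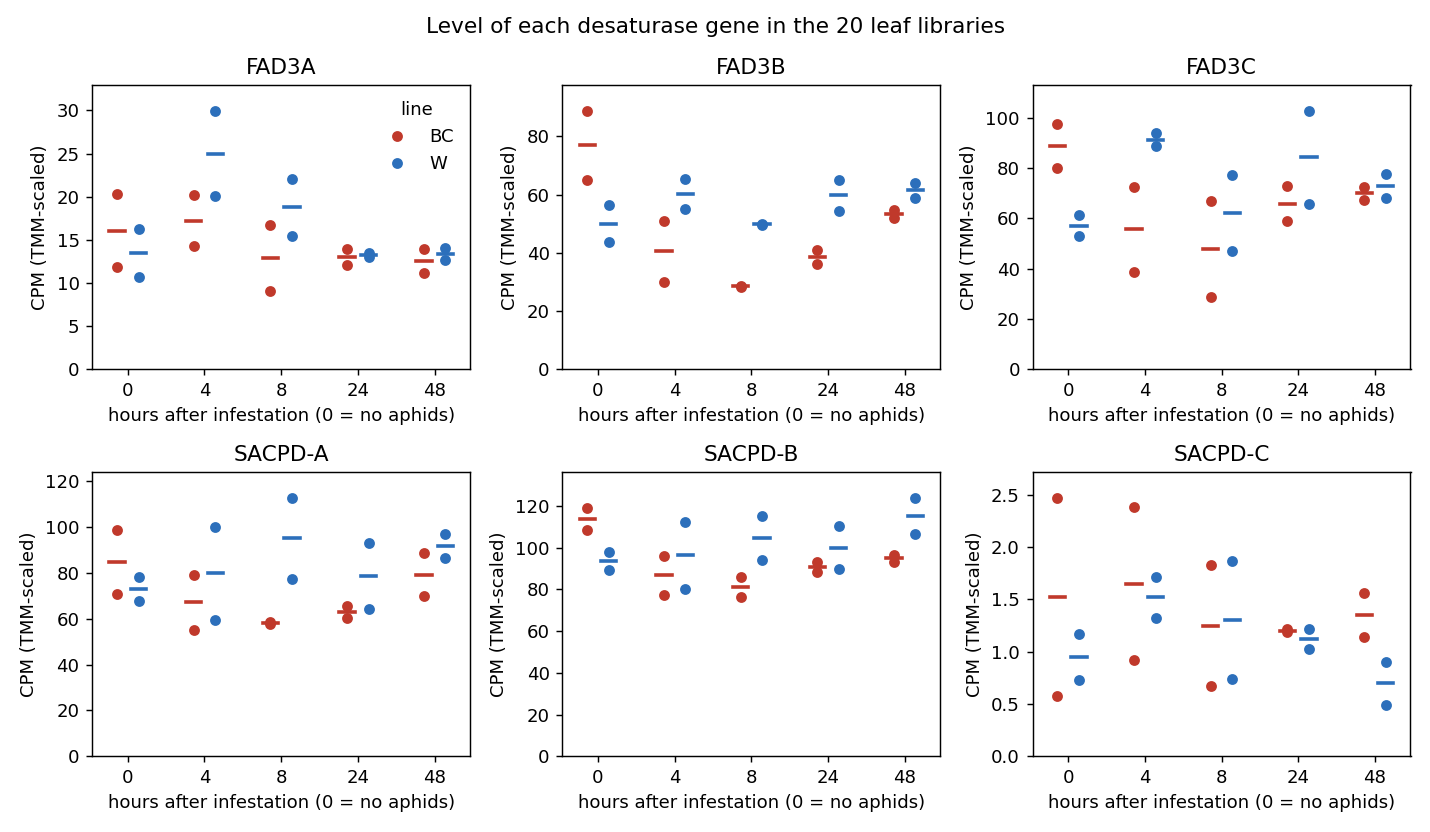
CPM of each of the 6 genes (1 panel per gene, vertical axes starting at 0) against the sampling time in hours at equal spacing. Points are the 20 libraries and short bars are the means of the 2 replicates, in BC (red) and in W (blue); FAD3B in BC lies highest at 0 h (65.1 and 88.7 CPM) and lowest at 8 h (28.7 and 28.3 CPM).

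Among the members, only FAD3B had a change over time that passed an adjusted p of 0.05 in edgeR. In BC it was lower at 8 h than at 0 h, but some alternative fits lost that result. FAD3B did not pass a joint test over all times in both lines (edgeR adjusted p = 0.107). In BC its CPM was 65.1 and 88.7 without aphids (0 h), 29.9 and 51.0 after 4 h, 28.7 and 28.3 after 8 h, 36.1 and 41.1 after 24 h, and 52.0 and 54.6 after 48 h. In W it was 43.7 and 56.4 without aphids (0 h), 65.2 and 55.1 after 4 h, 49.9 and 49.6 after 8 h, 64.9 and 54.5 after 24 h, and 59.0 and 64.1 after 48 h. Both BC libraries of each later time lay below both BC libraries of 0 h, and the W libraries of 8 h lay between those of W at 0 h.

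In BC, FAD3B averaged 28.5 ± 0.320 CPM at 8 h and 76.9 ± 16.7 CPM at 0 h (SD, n = 2 each), and the log2 fold change was -1.43 (SE 0.246, 95% interval -1.96 to -0.90; edgeR quasi-likelihood test, adjusted p = 0.00735). In this comparison 3.55% of the tested models were called in either direction and 2.28% were called lower, and FAD3B was the 1 member of 6 called. Leaf RNA of this kind cannot tell fewer cells of a type from less RNA per cell. The call was lost without replicate 2 of BC at 0 h (log2 fold change -1.19, edgeR adjusted p = 0.0564) and without replicate 2 of BC at 8 h (-1.39, edgeR adjusted p = 0.0800). It was also lost with limma voom (adjusted p = 0.126) and with edgeR on the 4 compared libraries alone (adjusted p = 0.205), and the log2 fold change stayed between -1.63 and -1.19 over the fits that left out 1 library.

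The size of that fall also depended on the scaling. On raw library totals, the median tested model shifted by 0.39 on the log2 scale in this comparison, and the log2 ratio of the FAD3B means was -1.04, against -1.43 on TMM-scaled sizes. The median of all tested models on raw totals stood at 0.41. TMM sets this bulk level, so FAD3B measured against that median returns about the TMM value. That is no separate check of the fall.

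At the other times after infestation FAD3B did not pass the threshold in BC. Its log2 fold change against 0 h was -0.93 at 4 h (edgeR adjusted p = 0.105), -0.99 at 24 h (adjusted p = 0.183) and -0.53 at 48 h (adjusted p = 0.385). In the same comparisons the share of all tested models called was 0.0822% at 4 h and 0 at 24 h and 48 h, so few or no models of any kind were called there. DESeq2 called the change at 4 h (adjusted p = 0.0131) and at 24 h (adjusted p = 0.0200), where it called 1895 and 768 models in all. Without replicate 2 of BC at 0 h the 3 values were -0.69, -0.75 and -0.29. Without replicate 1 of BC at 0 h the edgeR changes were -1.12 at 4 h and -1.19 at 24 h. Without replicate 2 of BC at 4 h the change at 4 h was -1.35.

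In W no FAD3B change passed the threshold. The log2 fold change against 0 h was 0.26 at 4 h, -0.01 at 8 h (SE 0.241, 95% interval -0.52 to 0.51, edgeR adjusted p = 0.997), 0.25 at 24 h and 0.30 at 48 h. The SE was 0.240 to 0.241 at the other 3 times, and both W libraries of 48 h lay above both of 0 h. The interval at 8 h does not reach the value measured in BC, which has an error of its own. The direct test of that difference is given below. The share of tested models called in W was 0.794%, 1.53%, 0 and 0.0771% at the times from 4 to 48 h, and 0 of the 6 members were called at any of them by edgeR, DESeq2 or limma voom, with 1 member at an unadjusted p below 0.05 (FAD3A at 4 h).

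Whether the FAD3B response differed between the lines was tested directly. The response at 8 h was lower in BC than in W by -1.42 on the log2 scale (SE 0.343, unadjusted p = 9.53e-04), which did not pass the threshold over all models (edgeR adjusted p = 0.214). At 4, 24 and 48 h the differences of response were -1.19, -1.25 and -0.83 (edgeR adjusted p = 0.411, 0.370 and 0.298), and without replicate 2 of BC at 0 h they were -0.95, -1.01 and -0.59. Without replicate 1 of BC at 0 h those at 4 h (-1.39, edgeR adjusted p = 0.0241) and 24 h (-1.44, adjusted p = 0.0166) were called, among 4614 and 5678 models. A joint test over the 4 later times was not called (edgeR adjusted p = 0.597, unadjusted p = 0.00704). In that joint test 0 of 38918 models were called, with 3121 at an unadjusted p below 0.05, and DESeq2 and limma voom called 0 of the 6 members in it. DESeq2 called the difference at 8 h (adjusted p = 0.0170), 1 of 723 models it called there, and so did edgeR without replicate 1 of BC at 0 h (-1.62, adjusted p = 0.0148), the fit in which the BC baseline rests on the library that stood apart and in which 4201 models were called, against 0 with all libraries. Without that library instead, the difference at 8 h was -1.18 (edgeR adjusted p = 0.386).

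**Figure D2:**
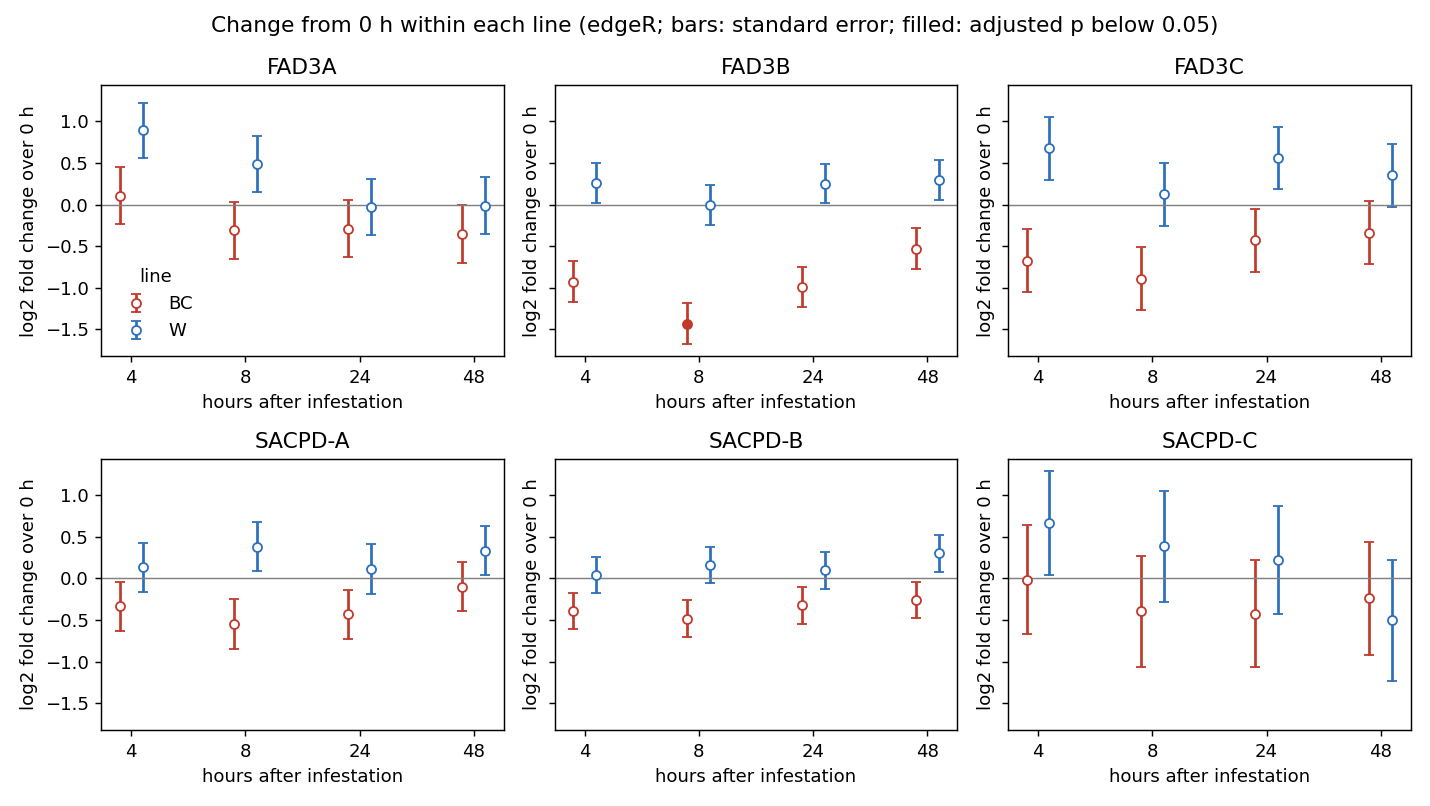
Log2 fold change of each of the 6 genes at 4, 8, 24 and 48 h against 0 h in BC and in W, in 1 panel per gene. Points are edgeR estimates, bars are standard errors, filled points passed an adjusted p of 0.05, and the horizontal line is no change; FAD3B in BC at 8 h (-1.43) is the lowest estimate and the only filled point.

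Averaged over both lines, FAD3B was also the 1 member of 6 called at 8 h. Its log2 fold change was -0.72 (SE 0.171, 95% interval -1.09 to -0.35; edgeR adjusted p = 0.0293), where 3.93% of tested models were called and 2.05% were called lower. That average joins a fall in BC with a change near 0 in W. The call was lost when any 1 of 6 libraries was left out (replicate 2 of W at 0 h, either replicate of W at 8 h, replicate 2 of BC at 0 h, either replicate of BC at 8 h), with edgeR adjusted p between 0.0792 and 0.136 (log2 fold change -0.60 without replicate 2 of BC at 0 h), and with limma voom (adjusted p = 0.0946). At 4, 24 and 48 h the averaged log2 fold changes were -0.33, -0.37 and -0.12 (-0.21, -0.25 and 0.00214 without replicate 2 of BC at 0 h), and 0 of 6 members were called, against 1.64%, 0 and 0.0257% of tested models.

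FAD3B regained level after 8 h by an amount just short of the threshold. At 48 h it was higher than at 8 h by 0.60 on the log2 scale over both lines (SE 0.172, edgeR adjusted p = 0.0579), a comparison in which 5.17% of models were called. DESeq2 and limma voom called this change (adjusted p = 0.0106 and 0.0113), among 3216 and 3522 models in all. In edgeR the change was also 0.60 when either replicate of BC at 0 h or of BC at 4 h was left out. Over the 6 comparisons between later times edgeR called 0 members in 36 tests, with 4 at an unadjusted p below 0.05. The share of tested models called in the other 5 was 1.41% for 8 h, 1.35% for 24 h and 2.42% for 48 h against 4 h, 4.24% for 24 h against 8 h, and 0 for 48 h against 24 h.

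Ordered by group mean, FAD3B ran from BC at 0 h at the top to BC at 8 h at the bottom, a ratio of 2.70. The 2 libraries of BC at 0 h lay above both libraries of the next group, W at 48 h (61.5 ± 3.63 CPM), and the 2 libraries of BC at 24 h (38.6 ± 3.53 CPM) lay above both of BC at 8 h. The other 7 of 9 neighbouring pairs of groups overlapped. No share over all tested models was computed for this order, which is given as a description. With 2 libraries against 2 in random order, no overlap in either direction arises in 33.3% of cases. The median ratio of highest to lowest group mean was 1.95 over the 6 members and 2.01 over all tested models.

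FAD3C, the FAD3 copy on chromosome 18, lay lower in BC after 0 h, but its replicates were further apart. In BC its CPM was 97.5 and 79.9 without aphids (0 h), 38.8 and 72.6 after 4 h, 66.9 and 28.8 after 8 h, 58.8 and 72.9 after 24 h, and 72.6 and 67.4 after 48 h. In W it was 53.0 and 61.3 without aphids (0 h), 93.9 and 88.8 after 4 h, 47.1 and 77.3 after 8 h, 103 and 65.9 after 24 h, and 68.1 and 77.7 after 48 h. Both BC libraries of every later time lay below both of BC at 0 h, and the 2 BC replicates of 8 h lay far apart.

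The FAD3C log2 fold change in BC was -0.89 at 8 h (SE 0.382, edgeR adjusted p = 0.181) and -0.67 at 4 h (adjusted p = 0.345; -0.81 without replicate 2 of BC at 0 h). In W at 4 h it was 0.68 (SE 0.379, edgeR adjusted p = 0.711). The difference between these responses at 4 h was -1.35 (unadjusted p = 0.0247, edgeR adjusted p = 0.420), and -1.49 without that library. FAD3C thus passed no test, and its estimate at 8 h in BC ran from -1.62 to -0.38 over the fits that left out 1 library (-1.03 without replicate 2 of BC at 0 h). None of its 9 neighbouring pairs of group means was without overlap.

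FAD3A, known as the major FAD3 gene of the seed, had its highest group mean in W at 4 h. In BC its CPM was 11.8 and 20.3 without aphids (0 h), 14.3 and 20.1 after 4 h, 16.8 and 9.03 after 8 h, 12.1 and 13.9 after 24 h, and 11.2 and 13.9 after 48 h. In W it was 16.3 and 10.7 without aphids (0 h), 20.0 and 30.0 after 4 h, 15.5 and 22.1 after 8 h, 13.1 and 13.4 after 24 h, and 12.6 and 14.1 after 48 h. Both W libraries of 4 h lay above both of W at 0 h, whereas the BC libraries of 4 h and 0 h overlapped.

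The FAD3A log2 fold change in W at 4 h was 0.89 (SE 0.334, 95% interval 0.18 to 1.61), which did not pass the threshold (edgeR adjusted p = 0.422). Over both lines it was 0.50 at 4 h against 0 h (edgeR adjusted p = 0.346; 0.71 without replicate 2 of BC at 0 h). Against 4 h it was -0.66 at 24 h (adjusted p = 0.260) and -0.68 at 48 h (adjusted p = 0.177). These 2 differences, averaged over both lines, had unadjusted p-values of 0.0153 and 0.0137, and no FAD3A test was called.

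SACPD-A and SACPD-B, the pair of stearoyl-ACP desaturase genes on chromosomes 7 and 2, varied little and varied together. In BC the CPM of SACPD-A was 98.6 and 70.9 without aphids (0 h), 55.2 and 79.0 after 4 h, 58.6 and 57.6 after 8 h, 65.4 and 60.3 after 24 h, and 69.7 and 88.8 after 48 h. In W it was 67.7 and 78.0 without aphids (0 h), 100.2 and 59.6 after 4 h, 113 and 77.1 after 8 h, 93.2 and 64.4 after 24 h, and 86.5 and 97.0 after 48 h. The lines overlapped at 0, 4, 24 and 48 h, and at 8 h both BC libraries lay below both W libraries.

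At 8 h SACPD-A was lower in BC than in W by -0.71 on the log2 scale (SE 0.299, 95% interval -1.35 to -0.07), which did not pass the threshold (edgeR adjusted p = 0.355). Its change at 8 h against 0 h was -0.55 in BC (edgeR adjusted p = 0.290; -0.76 without replicate 2 of BC at 0 h), and that response differed from the response in W by -0.93 (unadjusted p = 0.0446, edgeR adjusted p = 0.297; -1.15 without that library). No SACPD-A test was called.

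SACPD-B had the narrowest range of the 6 genes, with a ratio of 1.42 between its highest and lowest group means. In BC its CPM was 119 and 108 without aphids (0 h), 77.3 and 96.1 after 4 h, 85.9 and 76.5 after 8 h, 93.1 and 88.3 after 24 h, and 96.5 and 93.3 after 48 h. In W it was 89.5 and 97.9 without aphids (0 h), 112 and 80.4 after 4 h, 115 and 94.3 after 8 h, 110.5 and 89.6 after 24 h, and 107 and 124 after 48 h. Both libraries of each later time in BC lay below both of BC at 0 h, while in W the libraries of 48 h lay above those of 0 h.

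In BC the SACPD-B log2 fold change at 8 h was -0.49 (SE 0.221, 95% interval -0.96 to -0.01), and was not called (edgeR adjusted p = 0.206, unadjusted p = 0.0450). Without replicate 2 of BC at 0 h it was -0.55. Over both lines it was -0.16 at 8 h (SE 0.156, 95% interval -0.50 to 0.17, edgeR adjusted p = 0.629), and -0.20 without that library. The FAD3B estimate for the average of both lines at 8 h (-0.72) lies outside this interval. The 95% interval of FAD3B (-1.09 to -0.35) overlaps it, and the difference between the 2 genes was not tested.

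SACPD-C, the stearoyl-ACP desaturase gene known from seeds and nodules, was near the detection limit in leaves. Its CPM ran from 0.571 to 2.47 with a median of 1.20 in the 10 BC libraries and from 0.489 to 1.87 with a median of 1.10 in the 10 W libraries. The lines overlapped at 0, 4, 8 and 24 h; at 48 h BC had 1.56 and 1.14 CPM and W had 0.489 and 0.904 CPM. Separation upwards at that time was seen in 26.3% of tested models. The log2 difference at 48 h was 1.01 (SE 0.755, edgeR adjusted p = 0.710), and the interval of -0.60 to 2.63 shows how little 13 reads in the 2 W libraries of that time can resolve. Its replicate-to-replicate coefficient of variation in the edgeR fit was 0.412, against 0.177 for SACPD-B, 0.188 for FAD3B, 0.224 for SACPD-A, 0.244 for FAD3A and 0.275 for FAD3C.

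As a list, the members are given by the signs of their estimates, with no test. At 8 h in BC all 6 estimates were below 0, with a median log2 fold change of -0.52 against 0.01 over all tested models; on raw library totals 4 of 6 were below 0. At 24 h and 48 h in BC all 6 were again below 0 (medians -0.43 and -0.30), and on raw totals 6 and 4 of 6 were. In W at 4 h all 6 were above 0, with a median of 0.46 against -0.00215 over all models, and on raw totals 5 of 6 were. In W at 8, 24 and 48 h 5, 5 and 4 of 6 were above 0, and 5, 3 and 4 on raw totals. On raw totals 0 is not the level of the bulk of models. The median tested model stood there at 0.41, 0.14 and 0.16 at 8, 24 and 48 h in BC. In W it stood at -0.09, -0.10, -0.16 and -0.33 at 4, 8, 24 and 48 h. Without replicate 2 of BC at 0 h, 5 of 6 were below 0 in BC at each of the 4 later times (medians -0.59, -0.89, -0.61 and -0.32), and FAD3A was above 0. All 4 comparisons within a line share the libraries of 0 h, so their signs are not independent of each other.

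The members whose later libraries in BC all lay below the 2 libraries of 0 h numbered 3, 4, 4 and 3 at the times from 4 to 48 h. Among all tested models such separation downwards was seen in 17.7%, 18.7%, 21% and 19.8%. In W no member was separated downwards, and 3, 0, 1 and 4 members were separated upwards at 4, 8, 24 and 48 h, where 20.3%, 22.5%, 15.8% and 22.1% of tested models were. On raw library totals, where the bulk is shifted as given above, the members separated downwards in BC numbered 3, 2, 3 and 2. Those separated upwards in W numbered 2, 0, 1 and 0. With 6 genes that partly vary together, these counts are given as a description.

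The difference between the lines, averaged over the 5 times, passed the threshold for 0 of 6 members, where 0.213% of tested models (83) were called. The log2 difference was -0.19 for FAD3A, -0.32 for FAD3B (SE 0.108, 95% interval -0.55 to -0.09, edgeR adjusted p = 0.459), -0.17 for FAD3C, -0.26 for SACPD-A, -0.13 for SACPD-B and 0.38 for SACPD-C. Without replicate 2 of BC at 0 h these values ran from -0.37 (FAD3B) to 0.51 (SACPD-C), with the same signs. Of the 6, FAD3B alone had an unadjusted p below 0.05, and DESeq2 and limma voom called 0. The intervals of the other 5 members all include 0, and the widest is that of SACPD-C (-0.26 to 1.03).

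The averaged value joins estimates of opposite sign in FAD3B. The joint test of a response differing between the lines did not call FAD3B (edgeR adjusted p = 0.597). At 0 h it was higher in BC than in W by 0.62 (0.38 without replicate 2 of BC), and at 4, 8, 24 and 48 h the BC minus W difference was -0.57, -0.81, -0.63 and -0.21. The 2 libraries of BC and the 2 of W did not overlap at any of the 5 times on TMM-scaled sizes. At 48 h they overlapped on raw library totals, where the difference was 0.05 and the median tested model stood at 0.28. Separation in the same direction was seen in 16.6% of tested models at 0 h and in 15%, 22.2%, 19.6% and 25.2% at 4, 8, 24 and 48 h. None of the 5 differences passed the threshold (edgeR adjusted p from 0.324 to 1.00); that at 0 h did without replicate 1 of BC at 0 h (0.81, edgeR adjusted p = 0.0473), where 7785 models were called.

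Across all 6 members and 5 times, edgeR called 0 of 30 line differences, with 5 at an unadjusted p below 0.05, of which 4 were FAD3B, and DESeq2 and limma voom also called 0. The share of tested models called was 0.018%, 0.0308%, 0.0257%, 0.0308% and 0.0154% at the times from 0 to 48 h. At 0 h all 6 estimates were above 0 (median 0.45), also on raw totals, but 5 of 6 were without replicate 2 of BC, where FAD3A was at -0.19. At 8 h all 6 were below 0 (median -0.47), and 5 of 6 were on raw totals. On raw totals the median tested model stood at -0.21 at 0 h and at 0.30 at 8 h. FAD3C at 0 h was higher in BC by 0.63 (edgeR adjusted p = 0.470; 0.77 without replicate 2 of BC) and at 4 h lower by -0.71 (adjusted p = 1.00), without overlap between the lines at either time.

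**Figure D3:**
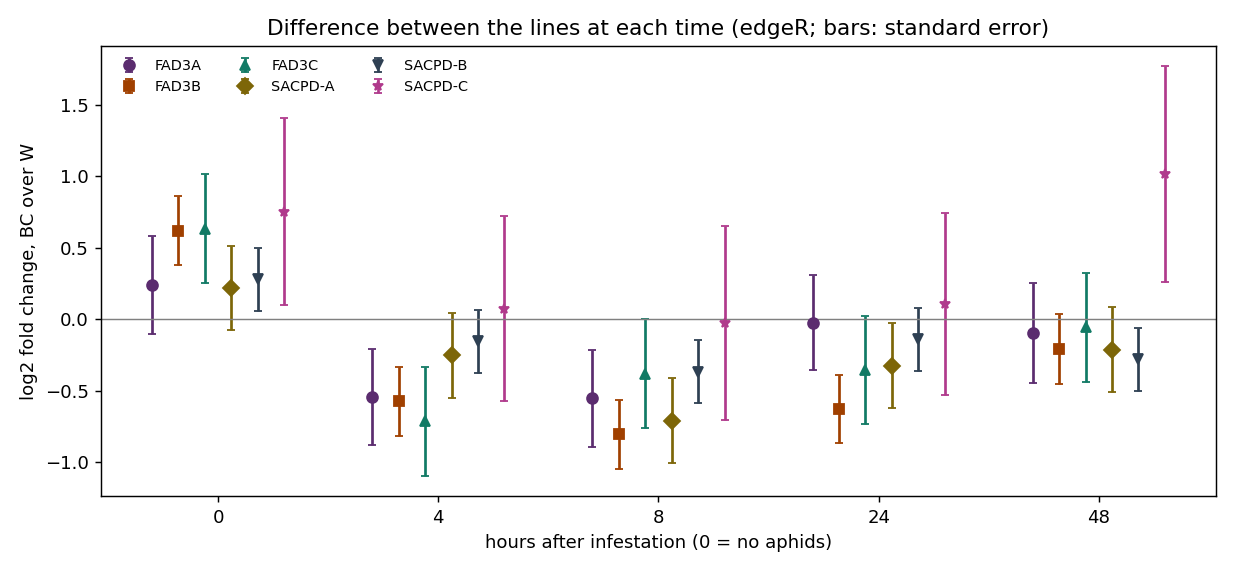
Log2 difference BC minus W of each of the 6 genes at 0, 4, 8, 24 and 48 h, 1 marker per gene; bars are standard errors from the edgeR fit and the horizontal line is no difference. The FAD3B estimate is 0.62 at 0 h and lies below 0 at the 4 later times, with -0.81 at 8 h as its lowest value.

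A joint test for any change over the 5 times in both lines together called 0 of 6 members, where 5.33% of tested models were called. FAD3B came closest, with an edgeR adjusted p = 0.107 (unadjusted p = 0.00927), and DESeq2 called it (adjusted p = 0.00996, among 4870 models in all) while limma voom did not. EdgeR also called it when replicate 1 of BC at 0 h, or 1 of the 2 BC libraries of 4 h, was left out.

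Ratios of 2 members within a library (log2, 0.5 CPM added to each) were compared between the lines with an exact two-sided permutation test (line names permuted within each time, 7776 arrangements, 6 pairs). None passed after adjustment over the 6 pairs with all 20 libraries. The ratio of SACPD-A to SACPD-C differed most, with a log2 mean of 5.28 ± 0.434 in BC and 5.72 ± 0.451 in W (SD, n = 10 each), a difference of -0.44 (exact permutation p = 0.0350, adjusted p = 0.210). Replicate 2 of BC at 0 h had 4 reads of SACPD-C and the highest ratio of the BC libraries (6.06). Without it the difference was -0.54, a value that rests on the low counts of SACPD-C. With 0.1 or 1 CPM added in place of 0.5, the difference over all 20 libraries was -0.50 or -0.40, and neither passed. The ratio of FAD3B to FAD3C was -0.48 ± 0.387 in BC and -0.36 ± 0.257 in W (SD, n = 10 each), a difference of -0.13 (exact permutation adjusted p = 0.537).

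The ratio of SACPD-A to SACPD-B was the steadiest of the 6, with an SD of 0.158 on the log2 scale over all 20 libraries, against 0.326 for the ratio of FAD3B to FAD3C and 0.503 for that of FAD3A to FAD3B. It averaged -0.42 ± 0.165 in BC and -0.30 ± 0.131 in W (SD, n = 10 each), a difference of -0.12 (exact permutation adjusted p = 0.233).

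**Figure D4:**
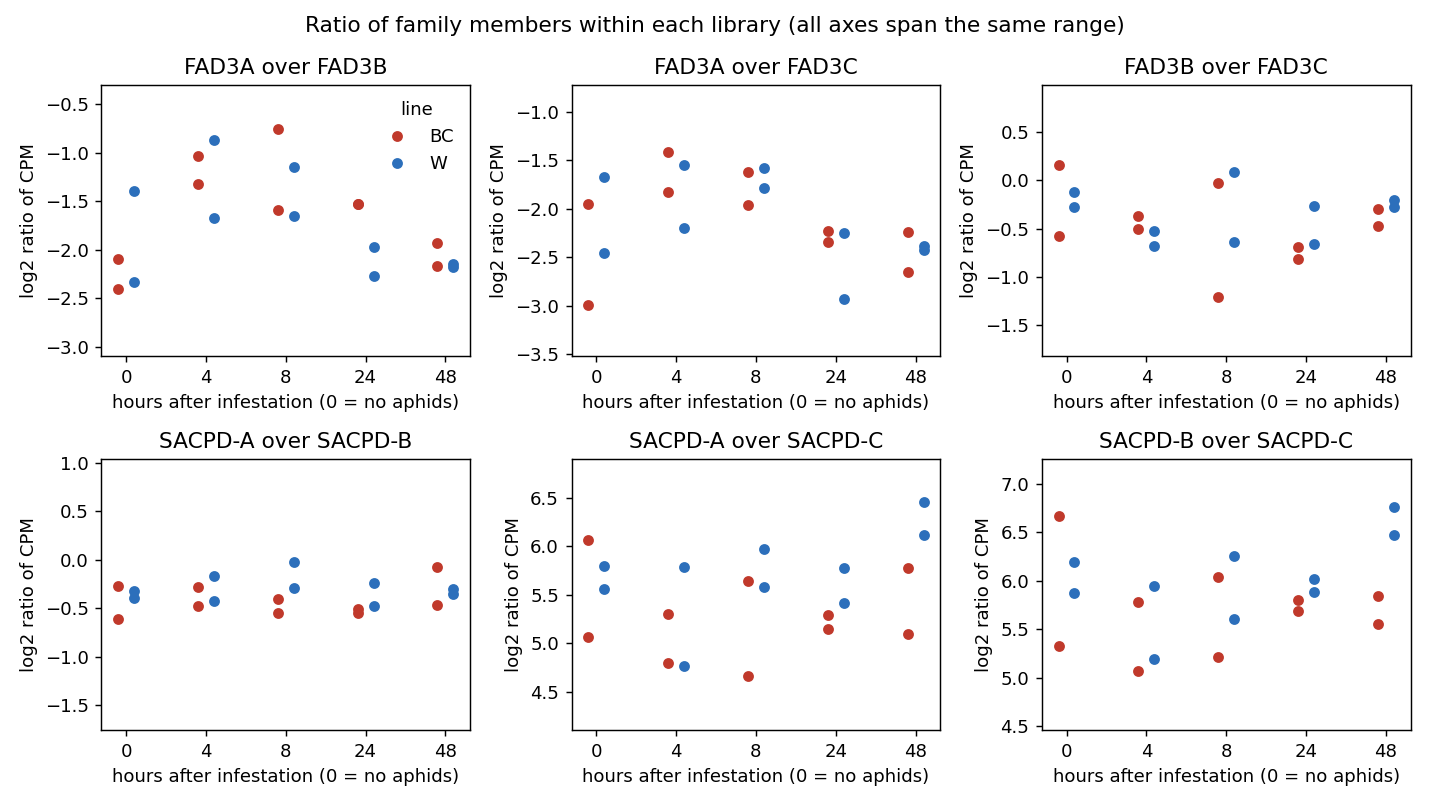
Log2 ratio of CPM (0.5 CPM added) for each of the 6 pairs of genes against the sampling time in hours at equal spacing; points are the 20 libraries, in BC (red) and in W (blue), and all vertical axes span the same range. The ratio of SACPD-A to SACPD-B spans the narrowest range, from -0.61 to -0.03.

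Over the 20 libraries, the log2 CPM of SACPD-A and SACPD-B had a Pearson correlation of 0.892, and of 0.900 after the group means were taken away. By this measure SACPD-B ranked 21 among 38917 models in likeness to SACPD-A, and SACPD-A ranked 69 in likeness to SACPD-B. FAD3B correlated with SACPD-B at 0.748, with FAD3C at 0.721 and with SACPD-A at 0.640. These 3 ranked only 864, 1150 and 2196 in likeness to FAD3B, and 456 models correlated with FAD3B at 0.8 or more. FAD3A stood apart from these, with 0.427 to FAD3C, 0.266 to FAD3B and values near 0 to SACPD-A (-0.016) and SACPD-B (-0.031). These are descriptions of 20 libraries that share time, line and scaling. How reads that match both members of a similar pair were assigned is not recorded, and their part in the likeness was not tested.

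The models whose levels followed each member most closely over the 20 libraries are given by identifier, since the files pair none with a name. For FAD3B they were Glyma08g15150.1 (r = 0.922) and Glyma06g17250.1 (0.920), and for FAD3C Glyma06g17350.1 (0.922) and Glyma04g19880.1 (0.904). For SACPD-A they were Glyma10g10990.1 (0.956) and Glyma17g02970.1 (0.940), and for SACPD-B Glyma03g35470.1 (0.936) and Glyma02g33070.1 (0.934). FAD3A and SACPD-C had no model above 0.8. Their nearest were Glyma06g22410.1 (0.789) and Glyma06g12790.1 (0.788) for FAD3A, and Glyma02g27260.1 (0.789) and Glyma07g10710.1 (0.786) for SACPD-C.

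For the neighbouring desaturation steps, 9 identifiers were listed from general knowledge, 5 for the oleate step and 4 for the plastid omega-3 step. Neither the files nor the RefSeq table pairs them with a name, so they are given by identifier and no role is assigned to any of them. Of the 5, 4 had enough reads to be tested, and of the 4, all 4 had. At 4 h over both lines, 2 of the 4 tested in the oleate list rose and 0 fell, and 0 of 4 in the omega-3 list were called; 1.06% of tested models rose. At 8 h, 1 rose and 1 fell in the oleate list, and 1 fell in the omega-3 list, where 1.87% of tested models rose and 2.05% fell.

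Glyma10g42470.1 moved furthest. In BC it had 2.50 and 9.61 CPM at 4 h, against 0.363 and 0.286 CPM at 0 h. In W it had 32.5 and 10.1 CPM at 4 h, against 0.769 and 1.45 CPM at 0 h. The libraries of 4 h lay above those of 0 h in both lines, and the log2 fold change over both lines was 4.18 (SE 0.587, edgeR adjusted p = 0.00224; 4.12 without replicate 2 of BC at 0 h). Glyma20g24530.1 rose likewise, by 2.15 at 4 h (edgeR adjusted p = 0.0108) and by 1.60 at 8 h (adjusted p = 0.0343). Without that library the rises were 2.78 and 2.23. Its CPM at 0 h was 0.218 and 1.00 in BC and 0.653 and 0.642 in W. Reads per library ran from 1 to 79 for Glyma20g24530.1 and from 0 to 736 for Glyma10g42470.1, so both rises start from low counts. Limma voom called neither gene (adjusted p = 0.484 for Glyma10g42470.1 at 4 h, 0.120 and 0.195 for Glyma20g24530.1 at 4 h and 8 h). The call of Glyma20g24530.1 at 4 h was lost without replicate 2 of W at 0 h or replicate 1 of W at 4 h, and that at 8 h in 8 of the 20 fits that left out 1 library.

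The other 2 moved at 8 h in the direction of FAD3B. Glyma19g32940.1 had 339 and 246 CPM in BC at 8 h, against 598 and 882 CPM in BC at 0 h, a log2 fold change of -1.34 (edgeR adjusted p = 0.0361). Glyma03g07570.1 had 62.8 and 25.3 CPM in BC at 8 h, against 173 and 167 CPM in BC at 0 h, a log2 fold change of -1.95 (edgeR adjusted p = 0.0148). Over both lines they fell by 0.88 (edgeR adjusted p = 0.0379) and by 1.30 (adjusted p = 0.0107) at 8 h, where FAD3B fell by 0.72. In W alone at 8 h the log2 fold change was -0.42 for Glyma19g32940.1 (edgeR adjusted p = 0.693) and -0.66 for Glyma03g07570.1 (adjusted p = 0.554). That of FAD3B in W was -0.01. These comparisons share their 0 h libraries with those of FAD3B. Without replicate 2 of BC at 0 h the BC values were -1.03 for Glyma19g32940.1 and -1.97 for Glyma03g07570.1, and neither passed the threshold (edgeR adjusted p = 0.184 and 0.0602). Over both lines they were then -0.73 (edgeR adjusted p = 0.105) and -1.32 (adjusted p = 0.0266). Without replicate 2 of BC at 8 h neither passed in BC. The BC call of Glyma19g32940.1 was lost in 11 of the 20 fits that left out 1 library and that over both lines in 14, and limma voom called neither gene in BC.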

How the data were processed

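Leaf RNA was extracted with Trizol and sequenced as Illumina mRNA libraries on a HiSeq 2000, per the labels' protocols. The deposited file holds raw read counts, 1 column for each library, with no normalization. The submitters' processing notes name TopHat 1.4.1, HTSeq 0.5.3, Cuffdiff 1.3.0 and edgeR. Build, annotation release and strandedness of the counting are not given in the sources used here, so antisense or overlapping transcripts may add reads. No library has reads marked as multiply aligned, so how reads common to near-identical copies were treated is not recorded, and FAD3 or SACPD copies are uncertain to that extent. The 5 HTSeq summary lines were set aside; 2.79% to 7.46% of reads overlapped no model and 1.43% to 1.86% were ambiguous.

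Models were filtered with filterByExpr by line and time, sizes were scaled by TMM, and 1 robust quasi-likelihood model with 10 line-by-time groups was fitted to all 20 libraries (edgeR 4.0.16, R 4.3.3). Benjamini-Hochberg adjustment ran over the 38918 tested models; tests are two-sided, with a threshold of 0.05. SEs were derived from the F statistic and the fold change. Intervals are at 95%, and n per group is 2. Log2 ratios of 2 members used CPM with 0.5 added and an exact permutation test. Replicates are labelled biological, and no 2 replicates of a group agreed within counting noise (chi-square per degree of freedom 5.36 to 81.8). The edgeR p-values set each difference against a replicate spread estimated over all 10 groups, with information shared between models. They do not rest on the spread of the compared groups alone. The fit was also run on simulated counts. These had the same spread for every model and no library that stood apart, so they do not measure error rates in these libraries.

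Alternatives were no low-count filter, RLE size factors, DESeq2 1.42.0, limma 3.58.1 (voom with library weights), the replicate number as a block, leaving out each library, the 4 compared libraries alone, pseudocounts of 0.1 and 1, and raw library totals. The tests of the difference of responses at single times, and the ratios of group means on raw totals, were chosen after seeing the data. The members, lists and tests were chosen with earlier results of these data known. Beyond the 6 genes, the models named are the 2 with the highest correlation to each member and those of a list of 9 identifiers for neighbouring steps.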

Additional observations from a re-analysis of the deposited data

How the results depend on the processing

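No call was made for a gene other than FAD3B among the 6 members under any alternative. Of the 8 counts of called members, DESeq2 gave 1 for pairs of later times, 3 within lines, 1 for the difference of responses at single times and 1 for any time (0, 1, 0 and 0 as reported). Limma voom gave 0 for later times against 0 h in both lines, 1 for pairs of later times and 0 within lines. The 4 compared libraries alone gave 0 within lines. Where totals are given above, DESeq2 called more models in all than edgeR on all libraries. So did edgeR without replicate 1 of BC at 0 h. Totals over all models are not given for every alternative, so these counts of members are a description. Leaving out each library in turn gave 0 to 1 called for later times against 0 h in both lines, for pairs of later times, for any time and for the lines at each time, 0 to 3 within lines and for the difference of responses, and 0 to 0 for the averaged line difference and the joint difference of responses.

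The same omissions moved the line differences of log2 ratios between 0.0339 and 0.222 (FAD3A over FAD3B), -0.103 and 0.104 (FAD3A over FAD3C), -0.245 and -0.00901 (FAD3B over FAD3C), -0.158 and -0.0789 (SACPD-A over SACPD-B), -0.544 and -0.340 (SACPD-A over SACPD-C, which passed without replicate 2 of BC at 0 h, exact permutation adjusted p = 0.0448), and -0.457 and -0.190 (SACPD-B over SACPD-C). They turned the sign of FAD3A at 8 h in BC (-0.809 to 0.118), SACPD-C at 8 h in BC (-1.27 to 1.10), FAD3B at 8 h in W (-0.180 to 0.186) and FAD3B at 48 h in both lines (-0.215 to 0.00214). FAD3A over FAD3C turned to -0.00278 with a pseudocount of 0.1, and FAD3B at 8 h in W turned to 0.00567 with limma voom and to 2.36e-04 with the replicate block. These last values lie near 0, and the cause of the other changes was not tested.

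Replicate numbers did not pair the libraries in the same direction throughout. Over 45 pairs of groups the correlation of deviations ran from -0.478 to 0.498 (median -0.0115). Of these, 15 were above 0.1 and 10 were negative by more than 0.1. Values of opposite sign cancel in the median, so it cannot exclude a batch shared by some of the groups. With the replicate number as a block, FAD3B at 8 h was -1.42 in BC (edgeR adjusted p = 0.00667) and -0.71 in both lines (adjusted p = 0.0287), and no count of called members changed. Raw library totals moved 12 of 60 group means by more than 1 SD. Depth limits SACPD-C most, with 4 to 49 reads per library.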
